A study of Mus musculus with 34 samples.

Results

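The synaptonemal complex genes described here were 7: Sycp1, Syce1, Syce2, Syce3, Tex12, Sycp2 and Sycp3. They were chosen by name from the 21887 protein-coding genes of the mouse annotation, and all 7 were found. Every interval of the deposited lists that lay in one of these genes, or within 1 kb of either of its ends, was collected. Male germ cells of 4 stages were profiled by ATAC-seq with paired-end reads, an assay in which DNA that is open to the Tn5 transposase is cut, tagged and sequenced. The meiotic fraction is called MS here, the round spermatids that follow it RS, the elongating or condensing spermatids ES, and the ripe sperm taken from the cauda of the epididymis Sp. The cKO mice were C57BL6 animals (GCN5-/- in the labels) whose floxed Gcn5 alleles were cut out by a Cre recombinase under the control of Stra8, a gene switched on around the entry into meiosis. The WT mice were C57BL6 animals with intact Gcn5 (GCN5+/+), and the SV129 mice were a second strain with intact Gcn5. Gcn5, encoded by Kat2a, is a histone acetyltransferase, and the series asks how it bears on nucleosome changes while sperm form. The cKO and WT groups had 2 libraries at each stage, and SV129 had 4 at MS, RS and ES (2 technical repeats of 2 biological replicates) and 6 at Sp, 34 libraries in 12 groups. The protocol in the labels describes SV129 mice of 8 to 12 weeks, with the cells of 11 animals pooled per collection and testis fractions of at least 85% purity. It does not say how the C57BL6 animals were collected.

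Each group came as 1 list of subnucleosome peaks, which mark stretches of open DNA, and 1 list of nucleosome calls, each 150 bp wide, so that 24 lists were read. A list holds no values per library. Differences between groups are therefore differences between single lists, with no replicate error and no test. Read depth is unknown, and the lists differed much in length. At MS the cKO list held 16087 subnucleosome peaks, the WT list 35822 and the SV129 list 33060, followed by 4075, 56480 and 29243 in the same order at RS. At ES they numbered 473, 562 and 787, and in sperm 1127, 3024 and 10715. Of nucleosome calls, cKO had 316843, WT 329678 and SV129 199111 at MS, followed in that order by 207681, 253621 and 230591 at RS, 540655, 591189 and 480320 at ES, and 347951, 8628 and 13615 in sperm.

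The synaptonemal complex is a protein ladder that joins homologous chromosomes along their length during meiotic prophase, and it is needed for chromosome pairing to be held and for crossovers to be completed. SYCP1 forms the rungs, the transverse filaments. SYCE1, SYCE2, SYCE3 and TEX12 make up the central element, where the rungs from both sides meet and are stabilised, and SYCP2 and SYCP3 coat the lateral elements, the axes to which the chromatin loops are anchored. The complex is taken apart before the meiotic divisions, so round spermatids no longer carry it. In male mice, loss of any of the 7 proteins stops germ cells in meiosis.

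The promoter sequences are shown because every peak of these genes at MS lay at a start, and because several of the starts carried the same short motifs. Sequences and starts are those of RefSeq for GRCm38.p6, the build (mm10) of the deposited lists. Each window runs from 250 bases before the start to 30 bases from it on, 5′ to 3′ on the gene's strand. The 7 genes had 9 such windows, since Syce2 had the second start 147 bp downstream of the first and Syce3 had it 240 bp downstream. The RefSeq start of Sycp2 lay 118 bp inside the annotated end of the gene. Capitals mark matches on either strand to 3 motifs: the E-box CACGTG, which reads the same on both strands, the E2F core TCCCGC, and the MYB core TAACNG. The first 4 windows, at chr3:102936071-102936350 (minus strand), chr8:84872008-84872287 (plus strand), chr9:50561239-50561518 (minus strand) and chr10:88459337-88459616 (plus strand), are those with an E-box. The last 2, at chr15:89410234-89410513 (minus strand) and chr2:178407629-178407908 (minus strand), belong to the only 2 genes with a subnucleosome peak in the cKO list at RS.
Sycp1: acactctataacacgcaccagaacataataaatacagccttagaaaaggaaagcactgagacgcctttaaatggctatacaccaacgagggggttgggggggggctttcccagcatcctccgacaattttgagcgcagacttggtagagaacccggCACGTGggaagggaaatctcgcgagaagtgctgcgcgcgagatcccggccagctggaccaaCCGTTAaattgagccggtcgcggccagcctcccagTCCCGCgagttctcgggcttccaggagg
Syce2, the downstream start: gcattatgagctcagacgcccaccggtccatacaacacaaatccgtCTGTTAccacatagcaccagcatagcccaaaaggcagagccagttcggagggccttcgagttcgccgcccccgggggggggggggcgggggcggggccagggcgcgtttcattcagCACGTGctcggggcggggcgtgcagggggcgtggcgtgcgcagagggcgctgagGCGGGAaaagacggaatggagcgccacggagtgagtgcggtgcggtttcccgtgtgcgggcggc
Tex12: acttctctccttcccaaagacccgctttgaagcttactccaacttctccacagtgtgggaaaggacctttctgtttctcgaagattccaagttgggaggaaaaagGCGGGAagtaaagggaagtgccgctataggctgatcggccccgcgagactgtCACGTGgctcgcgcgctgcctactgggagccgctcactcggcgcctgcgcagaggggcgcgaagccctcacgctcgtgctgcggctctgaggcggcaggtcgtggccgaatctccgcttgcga
Sycp3: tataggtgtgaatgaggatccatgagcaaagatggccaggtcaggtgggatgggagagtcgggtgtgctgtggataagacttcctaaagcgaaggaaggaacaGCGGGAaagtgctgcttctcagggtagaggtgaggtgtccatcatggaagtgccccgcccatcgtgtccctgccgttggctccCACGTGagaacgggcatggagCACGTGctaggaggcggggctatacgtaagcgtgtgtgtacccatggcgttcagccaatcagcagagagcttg
Syce3, the downstream start: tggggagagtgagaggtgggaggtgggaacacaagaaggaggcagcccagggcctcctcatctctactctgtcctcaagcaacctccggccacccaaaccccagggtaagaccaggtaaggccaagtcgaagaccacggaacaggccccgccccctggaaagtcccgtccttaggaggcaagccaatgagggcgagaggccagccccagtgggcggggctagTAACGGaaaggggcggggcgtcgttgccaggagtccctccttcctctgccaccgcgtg
Sycp2: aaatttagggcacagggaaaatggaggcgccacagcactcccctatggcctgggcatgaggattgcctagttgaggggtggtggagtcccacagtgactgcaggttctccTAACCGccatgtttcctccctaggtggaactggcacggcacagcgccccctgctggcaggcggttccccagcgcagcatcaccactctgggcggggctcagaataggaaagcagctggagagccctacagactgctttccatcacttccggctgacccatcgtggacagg

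The E-box was present in windows of 4 of the 7 genes, Sycp1, Syce2, Tex12 and Sycp3, and in 6.79% of the 32851 mouse promoter windows of the same length. Its first base lay 94 bases upstream of the start in Sycp1, 93 in Tex12 and 88 in Syce2, counted from the downstream start. Sycp3 had it at 64 and again at 43 bases upstream. The E2F core was present in the same 4 genes and in 18.8% of all windows, and a window with both motifs was found for each of the 4, against 1.80% of all windows. As background, MAX dimers, among them those with MGA, read the E-box and E2F6 reads the E2F core, and in embryonic stem cells complexes with these proteins keep meiotic genes silent. The MYB core, read by MYBL1, a factor of meiotic prophase, was present in 5 genes, Sycp1, Syce1, Syce2, Syce3 and Sycp2, and in 22.0% of all windows. The GC-box GGGCGG, also searched on both strands and able to share bases with an E2F match, was found in 4 genes and 34.7% of windows. The box CCAAT was found in 2 genes and 36.1% of windows, and the RFX core GTTGCC in 1 gene, Syce3, and 11.8%. These matches describe letters and are not measured binding. The shares of all windows were not matched for CpG dinucleotides, and the E-box and the E2F core each contain a CpG. The windows with both motifs had 13 (Sycp3), 20 (Sycp1), 25 (Tex12) and 29 (Syce2) CpG dinucleotides, against a median of 6 over all windows. The shares are also per window, whereas the counts are per gene and Syce2 and Syce3 had more than 1 window. The counts and shares are therefore not directly comparable.

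The windows ranged from 5 to 29 CpG dinucleotides, against a median of 6 over all mouse windows. The upstream start of Syce3 had the 5 and the downstream start of Syce2 the 29, and the other windows had 9 (Sycp2), 13 (Sycp3 and the downstream start of Syce3), 14 (Syce1), 16 (the upstream start of Syce2), 20 (Sycp1) and 25 (Tex12). Their GC content ran from 54.3% to 68.2%, against a median of 52.5%. In Sycp1, Tex12 and Sycp3 the E-box lay under a subnucleosome peak in 5 of the 6 MS and RS lists, all but cKO at RS. In Syce2 it lay under a peak in 3 lists, WT at MS and both WT and SV129 at RS.

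In the meiotic fraction, subnucleosome peaks stood at the starts of 6 of the 7 genes in cKO and of all 7 in both WT and SV129. Over the 17492 protein-coding genes with a RefSeq start, the share with a peak within 1 kb of a start was 37.9% for cKO, 53.6% for WT and 50.8% for SV129. No peak of the 3 lists lay anywhere else in the 7 genes, although the windows around their starts made up 14394 of 258147 bp, or 5.58% of the length searched. Over all 17492 genes the start windows were 4.57% of the length and held 71.8% of the peaks in genes for cKO, 59.5% for WT and 62.7% for SV129. Here and in the later shares of calls over all genes, intervals and lengths were summed gene by gene. An interval in overlapping genes was thus counted once for each. Counted over the gene with 1 kb beyond either end, the 7 genes gave the same 6, 7 and 7, against 44.9%, 63.4% and 60.5% of all 21887 genes.

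The transverse filament gene Sycp1 (chr3:102818499-102936100) had 341 bp covered by peaks within 1 kb of its start in cKO, 763 bp in WT and 500 bp in SV129 at MS. Its cKO list held a single peak, from 113 bp upstream to 227 bp downstream, whereas the WT and SV129 lists each held a peak over the start and a smaller one further into the gene. The smaller peak ran from 576 to 747 bp downstream in WT and from 636 to 720 bp in SV129. The peak over the start had a deposited score of 24.1 in cKO, above 90.8% of that list, and of 54.0 in WT, above 91.3% of that list. The scale of the score is not stated, and the SV129 lists give 0 for every peak, so a score is read only against its own list.

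Among the central element genes, Syce1 (chr7:140777229-140787854) had 363 bp covered in cKO, 390 bp in WT and 484 bp in SV129 at MS. Syce2 (chr8:84872111-84887446) had none in cKO, 446 bp in WT and 157 bp in SV129. It was the only one of the 7 genes with no peak in cKO at this stage, and its WT peak had the lowest score among the peaks over the 7 starts, 20.3, above 45.7% of the list. Syce3 (chr15:89390174-89410503) had 110 bp in cKO, 344 bp in WT and 220 bp in SV129, in each list downstream of its first start. The WT and SV129 peaks reached across the second start, and the cKO peak, from 93 to 202 bp, ended before it. Tex12 (chr9:50557148-50561268), a small gene inside the longer Il18 gene, whose own start lies 6568 bp away, had 300 bp in cKO, 465 bp in WT and 499 bp in SV129. Intervals inside Tex12 may belong to either gene, as may those where Gcdh, Klhdc7b and Chpt1 overlap the far ends or flanks of Syce2, Syce3 and Sycp3. The cKO peak of Tex12 ended 40 bp short of the start on its upstream side, while the WT and SV129 peaks crossed it.

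The lateral element gene Sycp2 (chr2:178345295-178407776) had 875 bp covered in cKO, 876 bp in WT and 823 bp in SV129 at MS. Its cKO peak ran from 165 bp upstream to 709 bp downstream and its WT peak from 168 bp upstream to 707 bp downstream, so that the 2 nearly coincided. The cKO peak scored 32.9, above 97.0% of its list, the highest place that any of the 7 genes had in the cKO or WT list at this stage. Sycp3 (chr10:88459587-88473236) had 206 bp in cKO, 330 bp in WT and 369 bp in SV129. All 6 genes with a peak in both the cKO and the WT list had fewer covered bases in cKO, for Sycp2 by a single base. The same held for 97.8% of the 6600 genes with a peak at a start in both lists, so it was no feature of these genes. SV129 had fewer covered bases than WT for 4 of the 7, against 82.5% of all genes with a peak in both.

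**Figure D1:**
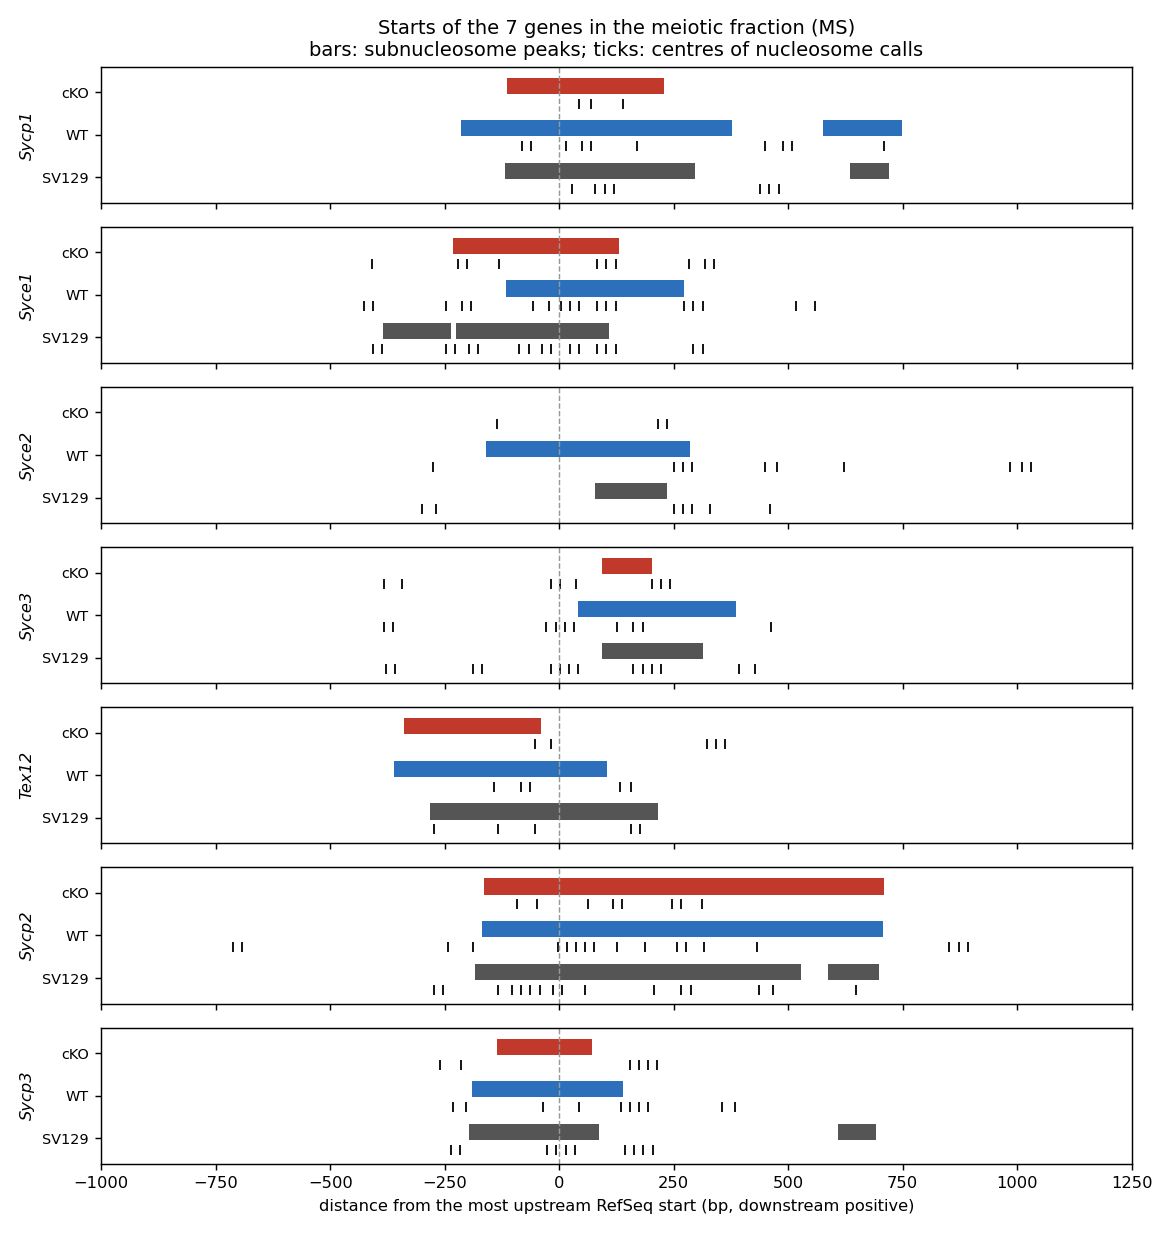
Subnucleosome peaks (bars) and centres of nucleosome calls (ticks) around the starts of the 7 genes in the meiotic fraction, as distance in bp from the most upstream RefSeq start, downstream positive, with 1 row each for cKO, WT and SV129. Every row holds at least 1 bar but that of Syce2 in cKO, which holds ticks only.

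In round spermatids, which have left meiosis, all 7 starts still had a subnucleosome peak in both WT and SV129, whereas the cKO list had a peak at 2 of them, Syce3 and Sycp2. The share of all genes with a peak at a start was 13.1% for cKO, 52.0% for WT and 45.2% for SV129. Over the gene with 1 kb beyond either end the 7 genes again gave 2, 7 and 7, against 14.9%, 64.1% and 55.8% of all genes. A peak at the start in WT and in SV129 at both MS and RS was found for all 7 genes and for 40.4% of the 17492 genes. The bases covered at the 7 starts added up to 2195 in cKO, 3614 in WT and 3052 in SV129 at MS, and to 290, 3996 and 2985 in the same order at RS. The median over the 7 genes, those at 0 included, was at MS 300 bp for cKO, 446 bp for WT and 484 bp for SV129, and at RS 0, 531 and 412 bp. Over all genes with a peak at a start the median was 213, 384 and 298 bp at MS and 130, 352 and 252 bp at RS, with genes at 0 left out.

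At Sycp1, no base was covered at the start in cKO at RS, against 782 bp in WT and 412 bp in SV129. The WT and SV129 lists again each had a peak over the start and a smaller one inside the gene, from 523 to 726 bp downstream in WT and from 465 to 643 bp in SV129. Both intact lists thus had this pair of peaks at MS and at RS.

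Of the central element genes at RS, Syce1 had no base covered in cKO, 528 bp in WT and 227 bp in SV129. Syce2 had none in cKO, 531 bp in WT and 626 bp in SV129, with an additional peak from 1062 to 1167 bp downstream of the first start in WT and from 1028 to 1119 bp in SV129 that no MS list had. SV129 had a further peak from 769 to 872 bp downstream that WT lacked. Syce3 had a peak of 78 bp in cKO, against 280 bp in WT and 459 bp in SV129. The cKO peak of Syce3 ran from 103 to 180 bp downstream of the first start, inside the WT peak from 55 to 334 bp, and lay low in its list, with a score of 5.22 above 19.8% of the peaks. Tex12 had none in cKO, 304 bp in WT and 279 bp in SV129.

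Of the lateral element genes at RS, Sycp2 had 212 bp covered in cKO, 887 bp in WT and 655 bp in SV129. The cKO peak lay across the start, from 52 bp upstream to 159 bp downstream, with a score of 7.77 above 55.8% of its list. The WT peak ran from 161 bp upstream to 725 bp downstream, much as at MS. Sycp3 had none in cKO, 684 bp in WT and 327 bp in SV129, and its WT list alone held peaks from 517 to 712 bp and from 849 to 926 bp downstream.

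**Figure D2:**
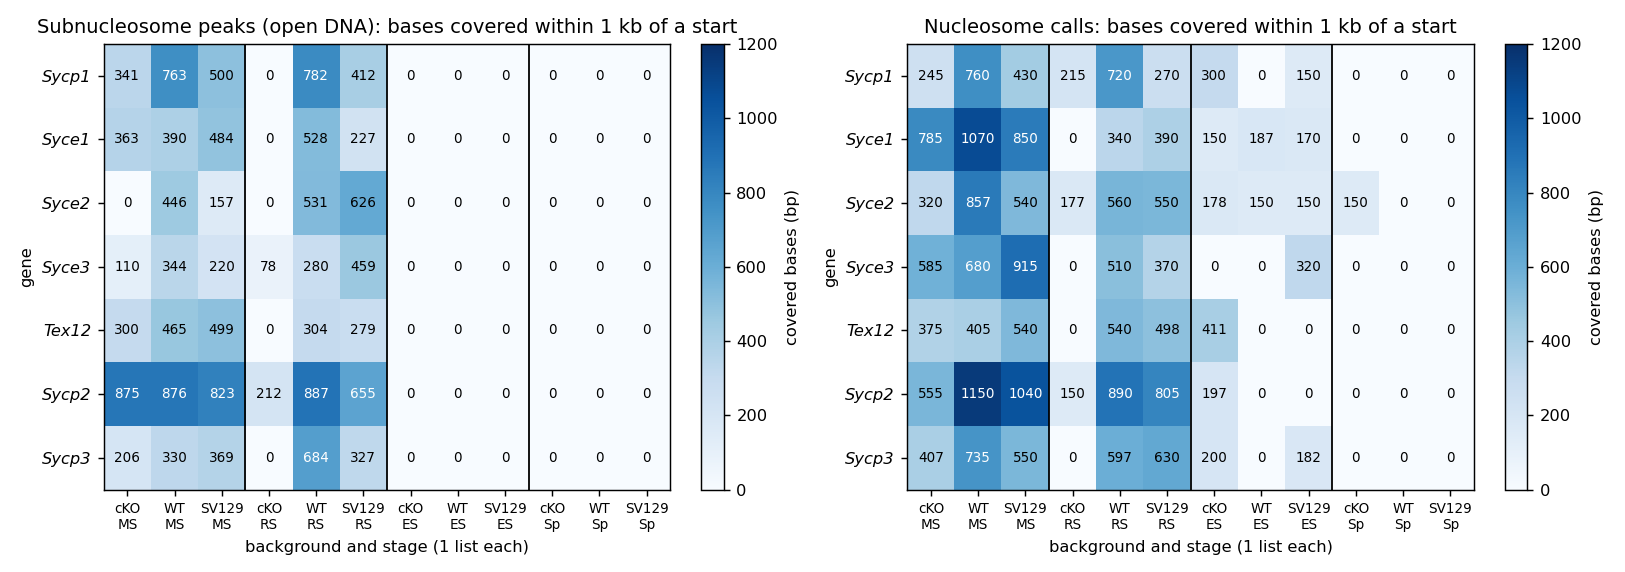
Bases covered by subnucleosome peaks (left) and by nucleosome calls (right) within 1 kb of a start, for each of the 7 genes (rows) and each stage and background (columns, 1 list each). At RS the cKO column holds 2 values above 0 in the left panel, 78 for Syce3 and 212 for Sycp2, while the WT and SV129 columns run from 227 to 887. All columns for ES and Sp are 0 on the left.

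**Figure D3:**
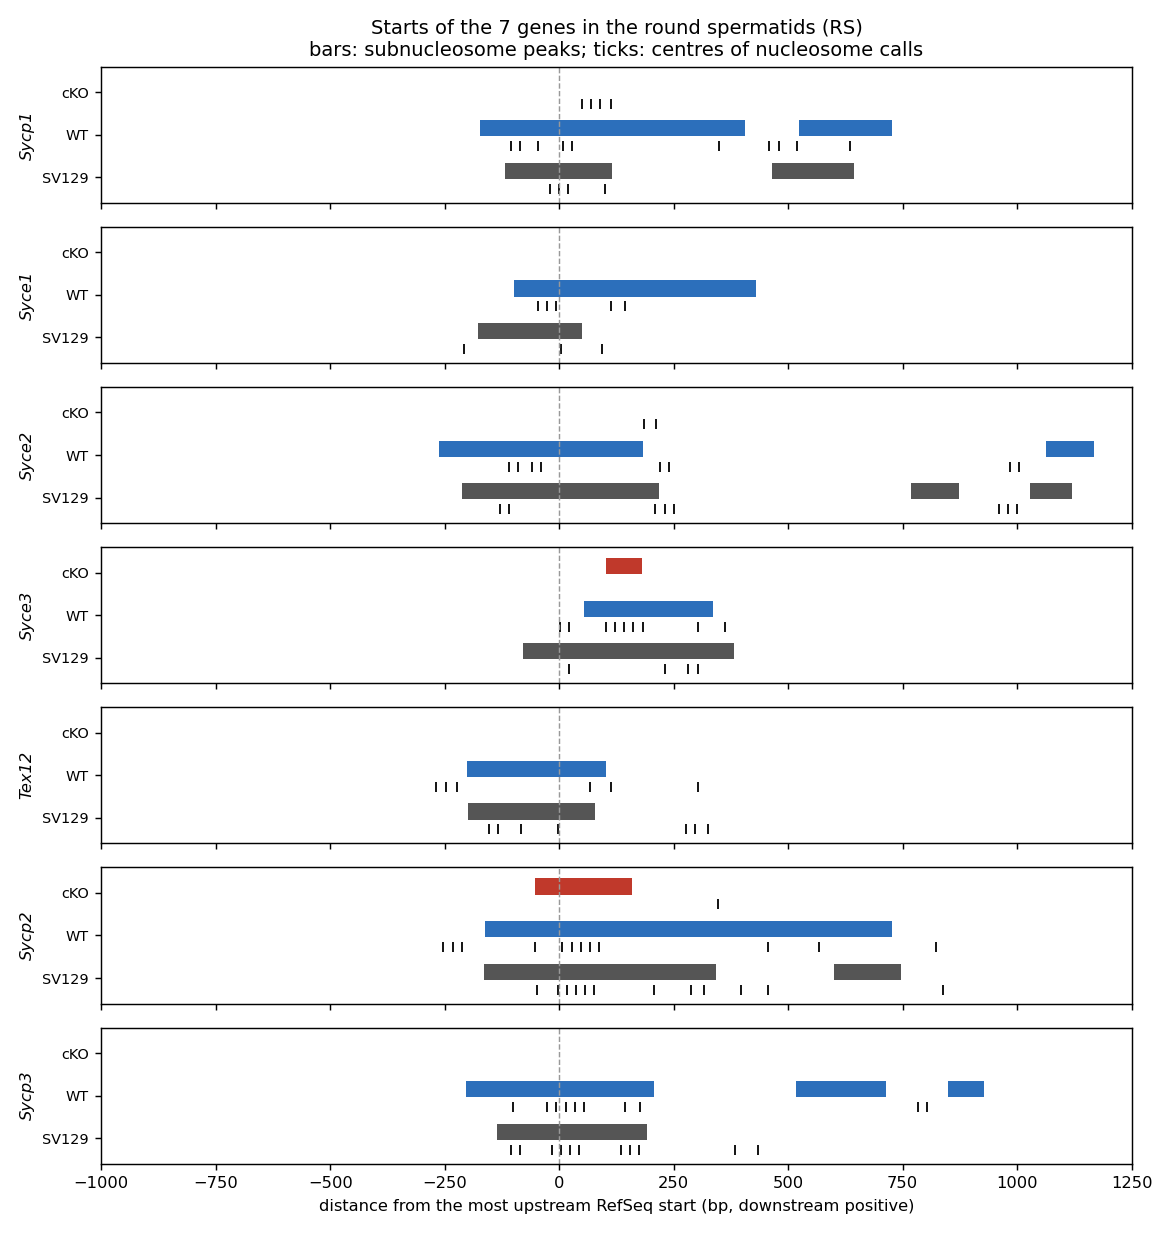
Subnucleosome peaks (bars) and centres of nucleosome calls (ticks) around the starts of the 7 genes in round spermatids, drawn as for the meiotic fraction. The cKO rows of Syce1, Tex12 and Sycp3 are empty of both kinds of interval, and the only cKO bars are those of Syce3 and Sycp2.

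At RS, the share of starts without a peak in cKO was close to that of genes at large. Of the 7 genes with a peak at the start in WT at RS, 5 had none in cKO, and of all 9102 such genes 74.9% had none. The same comparison between intact lists, a peak in WT and none in SV129, gave 0 of 7 and 14.8% of all genes. At MS a peak in WT and none in cKO was found for 1 of 7, Syce2, against 29.6% of 9373 genes, and a peak in WT and none in SV129 for 0 of 7, against 8.51%. The cKO list at RS was also the shortest of the 3, with 4075 peaks, and the part of list length or depth in these counts was not tested.

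The 2 genes with a peak in cKO at RS had the highest WT scores at that stage. The WT peaks over the starts scored 62.3 at Syce3 and 56.8 at Sycp2, against 51.4 at Sycp3, 48.8 at Sycp1, 45.9 at Tex12, 33.1 at Syce1 and 26.7 at Syce2. Syce2, without a peak in cKO at both stages, had the lowest WT score at both. Of all WT peaks with a score in the range of these 7 at RS, 26.7 to 62.3, 2617 of 15623, or 16.8% (95% Wilson interval 16.2 to 17.3), overlapped a cKO peak. At MS the range was 20.3 to 57.4, and 10832 of 17042 WT peaks, or 63.6% (62.8 to 64.3), overlapped a cKO peak. Both shares count WT peaks anywhere in the genome by direct overlap. The 7 genes were counted by any cKO peak within 1 kb of a start, so the measures are not alike. These intervals cover counting error only. Those given below for nucleosome calls treat overlapping calls as independent, so they are too narrow even for that.

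**Figure D4:**
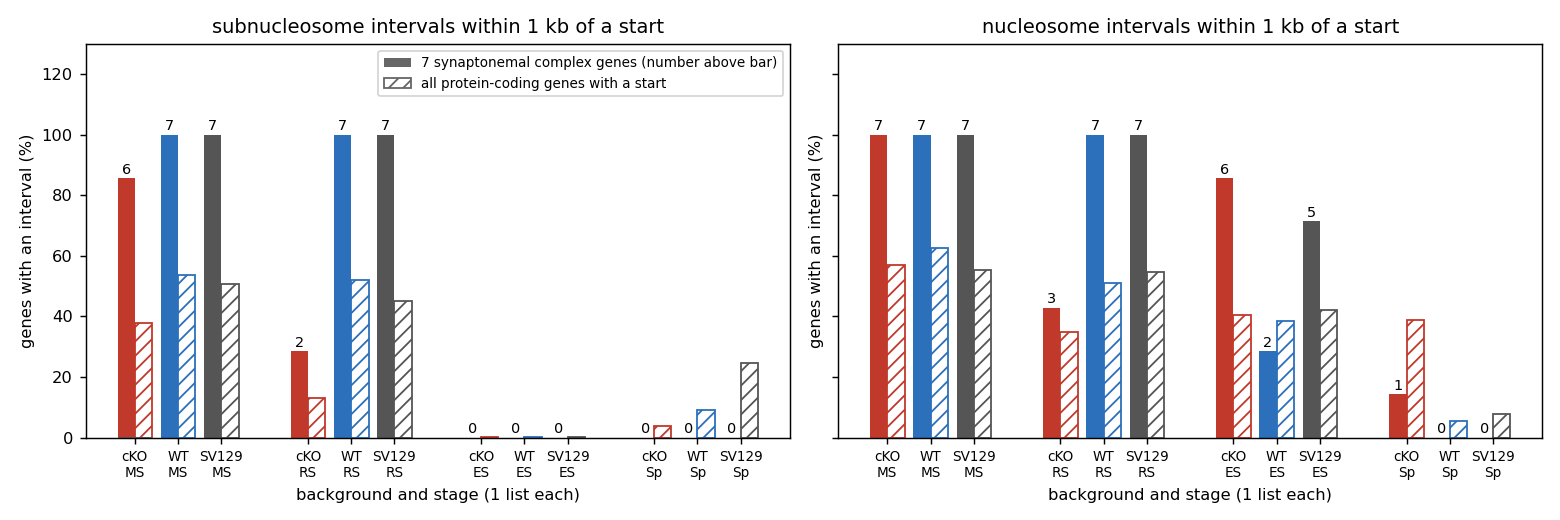
Share of genes with a subnucleosome peak (left) or a nucleosome call (right) within 1 kb of a start, for the 7 synaptonemal complex genes (filled bars, with the number of genes above) and for all 17492 protein-coding genes with a start (hatched bars), by stage and background. On the left the filled bars stand at 6, 7 and 7 genes at MS and at 2, 7 and 7 at RS for cKO, WT and SV129, and at 0 at ES and Sp.

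Nucleosome calls were found at the starts of all 7 genes in cKO, WT and SV129 at MS, where 57.0%, 62.7% and 55.4% of all genes had one. Over the gene with its flanks the count was again 7 in each, against 73.2%, 75.1% and 65.1% of all genes. In cKO 43 of 62 calls in the 7 genes (69.4%, interval 57.0 to 79.4) lay within 1 kb of a start, in WT 81 of 112 (72.3%, 63.4 to 79.8) and in SV129 76 of 78 (97.4%, 91.1 to 99.3). Over all genes with a start the shares were 38.2%, 49.4% and 62.4%. The intervals treat calls as independent, although neighbouring calls overlap. More call centres lay downstream than upstream of the start in each list, 29 and 14 in cKO, 56 and 25 in WT, and 44 and 32 in SV129. Here and at RS, sides are taken from the most upstream start. The windows of Syce2 and Syce3 reach further downstream, to 1 kb beyond their second starts. The split was not counted over all genes.

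Calls and peaks were not exclusive of each other. At MS, 19 of the 43 call centres at starts in cKO, 37 of the 81 in WT and 42 of the 76 in SV129 lay inside a subnucleosome peak of the same group. Bases covered by calls at the start ranged from 245 (Sycp1) to 785 (Syce1) in cKO, from 405 (Tex12) to 1150 (Sycp2) in WT and from 430 (Sycp1) to 1040 (Sycp2) in SV129. Syce1 had the most calls of the 7 genes in WT and SV129, 38 and 18, against 15 in cKO. In WT 18 of the Syce1 calls lay at the start, 7 at the other end and 13 between them. None of the 7 genes, all with a nucleosome call at the start in WT, lacked one in cKO or in SV129, whereas 17.1% of all such genes lacked one in cKO and 15.3% in SV129.

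At RS, nucleosome calls were found at the starts of 3 of the 7 genes in cKO, Sycp1, Syce2 and Sycp2, and of all 7 in WT and in SV129. The shares of all genes were 35.0%, 51.2% and 54.6%. Over the gene with its flanks the counts were 4, 7 and 7, against 63.9%, 63.1% and 68.4%. Of the genes with a call at the start in WT, 4 of 7 had none in cKO and 0 of 7 had none in SV129, against 45.7% and 11.6% of all genes. Unlike the subnucleosome peaks, the cKO nucleosome list at this stage had 207681 calls, of the same order as the 253621 of WT and the 230591 of SV129.

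By position, in cKO 7 of 19 RS calls in the 7 genes lay at a start (36.8%, interval 19.1 to 59.0), in WT 60 of 71 (84.5%, 74.3 to 91.1) and in SV129 49 of 56 (87.5%, 76.4 to 93.8). Neighbouring calls overlap and are not independent, so the intervals make no test between the lists. Over all genes with a start the shares were 21.3%, 49.0% and 48.0%, so the lower share in cKO was also found over genes at large. The 7 calls at starts in cKO were 4 at Sycp1, 2 at Syce2 and 1 at Sycp2, and all their centres lay downstream of the start. None lay in a peak, but Sycp1 and Syce2 had no peak in that list, so this count is not compared with the others. In WT 40 lay downstream and 20 upstream, and 39 of the 60 lay in a peak, and in SV129 35 lay downstream and 14 upstream, and 34 of the 49 lay in a peak.

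By gene, Sycp1 had 215 bp covered by nucleosome calls at its start in cKO at RS, 720 bp in WT and 270 bp in SV129. Syce2 had 177 bp in cKO, 560 bp in WT and 550 bp in SV129, and Sycp2 had 150 bp in cKO, 890 bp in WT and 805 bp in SV129. The other 4 starts had none in cKO. At those 4, WT and SV129 covered 340 and 390 bp of Syce1, 510 and 370 bp of Syce3, 540 and 498 bp of Tex12, and 597 and 630 bp of Sycp3. Syce1, Tex12 and Sycp3 had no interval of either class anywhere in the gene or its flanks in cKO at RS, and Syce3 had 7 calls in its body besides its peak. Sycp1 and Syce2 had calls and no peak at their starts.

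In elongating spermatids, no subnucleosome peak lay in any of the 7 genes in cKO, WT or SV129. Such peaks were few everywhere, with 0.0858%, 0.0686% and 0.0972% of all genes having one at a start and 0.535%, 0.507% and 0.964% having one in the gene or its flanks. Nucleosome calls were present at the starts of 6 genes in cKO, 2 in WT and 5 in SV129, against 40.4%, 38.6% and 42.1% of all genes. Over the gene with its flanks the counts were 7, 6 and 5, against 78.5%, 80.3% and 78.9%.

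The 2 genes with a call at the start in WT at ES were Syce1 and Syce2, each of which also had one in cKO and SV129. Of the calls in the 7 genes, 17 of 31 lay at a start in cKO (54.8%, interval 37.8 to 70.8), 3 of 37 in WT (8.11%, 2.80 to 21.3) and 9 of 24 in SV129 (37.5%, 21.2 to 57.3). Of the 17 calls at starts in cKO, 6 were at Tex12 and 3 each at Sycp2 and Sycp3, so they came in few clusters. Over all genes with a start the shares were 9.48%, 8.08% and 9.29%. Tex12 had 6 calls at its start in cKO, covering 411 bp, and none in WT or SV129. Sycp3 had 3 calls at its start in cKO and 2 in SV129, while its 3 calls in WT lay inside the gene. Sycp2 had 3 calls at its start in cKO, and its 6 WT calls lay inside the gene.

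In mature sperm the 7 genes had no subnucleosome peak in any list. A peak at a start was found for 3.80% of all genes in cKO, 9.16% of them in WT and 24.5% in SV129, and one in the gene or its flanks for 4.15%, 11.6% and 31.6%. All 6 genes with a peak at MS in cKO, and all 7 in WT and in SV129, had none in sperm. The same was true of 90.3% of all genes with such an MS peak in cKO, 83.5% of those in WT and 55.4% in SV129. The SV129 sperm list was the longest of the 3, with 10715 peaks.

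Nucleosome calls in sperm were found in the cKO list alone, 13 calls in 5 of the 7 genes, against 0 calls in WT and 0 in SV129. The cKO sperm list was far longer, with 347951 calls against 8628 and 13615, and 71.7% of all genes had a call in the gene or its flanks in cKO, 8.79% of them in WT and 10.4% in SV129. The 5 genes were Syce1 with 5 calls, Sycp1 and Sycp2 with 3 each, and Syce2 and Syce3 with 1 each. A single call, in Syce2, lay at a start, so that 1 of 7 starts had a call in cKO and 0 in WT and SV129, against 39.0%, 5.60% and 7.95% of all genes. The share of calls at starts in cKO sperm was 7.69% (interval 1.37 to 33.3), and over all genes with a start it was 17.0%.

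Away from the starts, the longest gene, Sycp1, with 117602 bp, held a site inside the gene that was open in round spermatids. The site was chosen after its values were seen. A subnucleosome peak ran from 70111 to 70399 bp downstream of the start (chr3:102865701-102865989) in WT at RS, with a score of 53.2 above 92.6% of the list, higher than the 48.8 of the peak over the Sycp1 start. SV129 at RS had peaks from 70149 to 70354 bp (chr3:102865746-102865951) and from 69584 to 69706 bp. The cKO list at RS had none there, and neither had any list of another stage.

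Nucleosome calls with centres between 69 and 71 kb downstream of the Sycp1 start numbered 0 at RS in cKO, 10 at RS in WT and 3 at RS in SV129. At MS there were 3 in cKO and 0 in WT and in SV129, and at ES 1 in cKO, 0 in WT and 3 in SV129. Sperm had none in any list. A peak inside the gene and over 1 kb from its ends, present in WT and SV129 at RS and in no MS list, was found for 1 of the 7 genes and for 8.36% of all 17492 genes. That share is over genes of every length, not matched to Sycp1, and a longer gene has more room for such a peak. The WT list at RS also held a peak from 7275 to 7371 bp downstream in Sycp1, low in its list with a score of 10.3, that SV129 did not have.

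**Figure D5:**
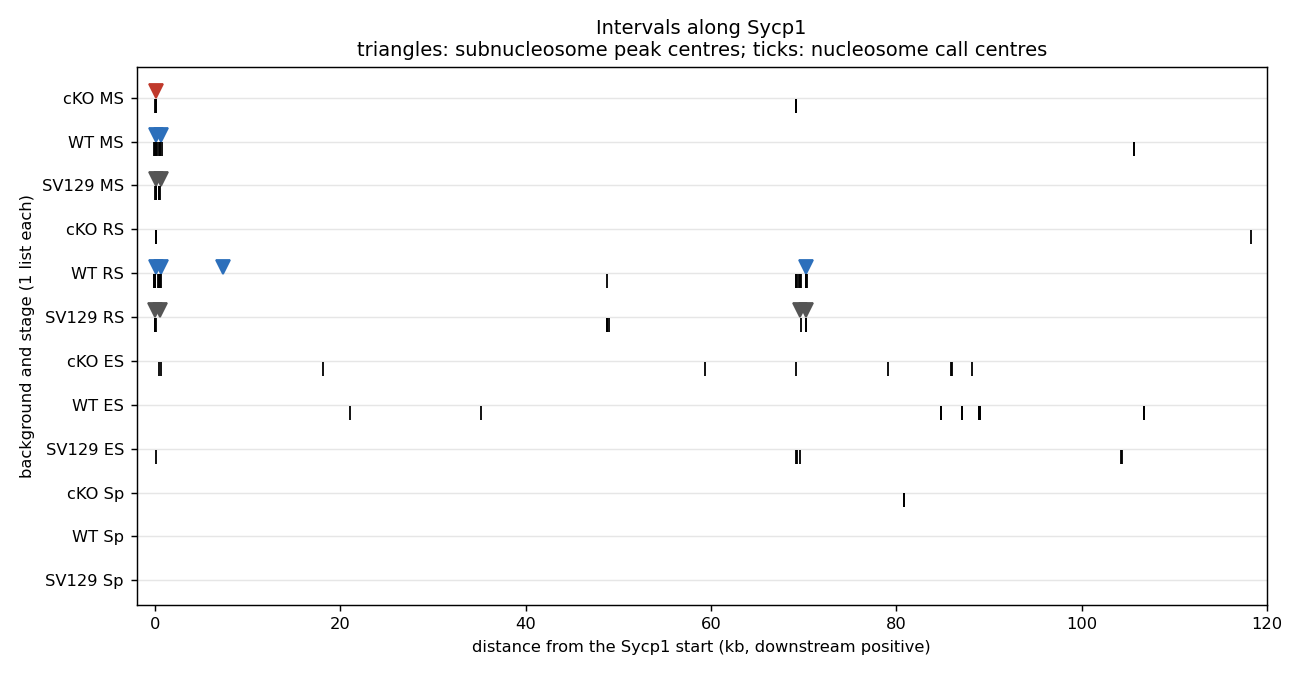
Centres of subnucleosome peaks (triangles) and nucleosome calls (ticks) along Sycp1, as distance from its start in kb, downstream positive, with 1 row for each stage and background. Triangles near 70 kb stand in the RS rows of WT and SV129 and in no other row.

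Genes that work beside the synaptonemal complex were counted in the same way. The axis and cohesin list had 10 genes: Six6os1, whose product belongs to the central element, Sycp2l, a relative of Sycp2, Hormad1, Hormad2, Trip13 and Iho1 of the chromosome axis, and Rec8, Rad21l, Stag3 and Smc1b of meiotic cohesin. Peaks at their starts were found for 7 in cKO, 8 in WT and 8 in SV129 at MS, and for 2, 8 and 7 at RS. The 2 in cKO at RS were Hormad1 and Rec8. Over all genes with a start the shares were 37.9%, 53.6% and 50.8% at MS and 13.1%, 52.0% and 45.2% at RS. No gene of this list had a peak at its start at ES or in sperm, and Sycp2l and Rad21l had none at the start in any list. Within 1 kb of either annotated end, Rad21l had a peak in WT and SV129 at both MS and RS. Hormad1 had one there in WT and SV129 sperm.

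The crossover and telomere list had 12 genes, of which 9 had a RefSeq start. Peaks stood at the starts of 8 genes at MS in cKO and of 9 each in WT and SV129, and of 2, 9 and 9 at RS. The 2 in cKO at RS were Msh5, of the complex that stabilises crossover intermediates, and Sun1, of the nuclear envelope. The shares of all genes at MS and RS are those given for the axis and cohesin list. None of the 9 genes had a peak at ES, and in sperm there were 0 in cKO, 1 in WT (Sun1) and 3 in SV129 (Msh5, Sun1 and Spdya). In sperm the shares of all genes were 3.80%, 9.16% and 24.5%. In both lists, as in the 7 genes, starts with a peak in WT at RS were mostly without one in cKO, which was also the case for 74.9% of all genes.

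Of these partner genes, 10 and 9 in the 2 lists had a RefSeq start. Among them, 12 had a peak at the start in WT and SV129 and none in cKO at RS. The share of all genes for this call was not counted. By WT alone, 74.9% of the 9102 genes with a peak at a start had none in cKO. Six6os1 had 0 bp covered in cKO, 476 bp in WT and 292 bp in SV129. Hormad2 had 0, 358 and 179 bp in the same order, and Trip13, the remodeler that takes HORMA proteins off the axis, 0, 694 and 432 bp. Iho1, needed with HORMAD1 for meiotic DNA breaks, had 0, 321 and 308 bp. Stag3 had 0, 623 and 632 bp, and Rnf212, a factor of crossover sites on the synaptonemal complex, 0, 243 and 221 bp.

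Nucleosome calls at the starts of the 10 axis and cohesin genes were found for 8 in cKO, 9 in WT and 8 in SV129 at MS. They were found for 3, 8 and 9 at RS, 4, 4 and 3 at ES and 1, 0 and 1 in sperm. For the 9 crossover and telomere genes with a start the counts were 8, 9 and 9 at MS and 3, 9 and 7 at RS. They were 3, 4 and 3 at ES and 3, 0 and 1 in sperm. Over all genes with a start the shares were 57.0%, 62.7% and 55.4% at MS and 35.0%, 51.2% and 54.6% at RS. At ES they were 40.4%, 38.6% and 42.1%, and in sperm 39.0%, 5.60% and 7.95%.

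The labelled stages were set against markers of round spermatids and of other cells, counted by a peak within 1 kb of either end. Of 8 round spermatid genes, 4 had a peak in cKO, 5 in WT and 5 in SV129 at MS, and 1, 7 and 8 had one at RS. At RS the transition protein and protamine genes Tnp1, Prm1 and Prm2 had a peak in both WT and SV129, Tnp2 in SV129, and none of the 4 in cKO, where Acr, of the acrosome, was the gene with a peak. Within 1 kb of the RefSeq start of Prm2 no list had a peak. Counted at starts, 0 of the 7 genes with a RefSeq start had one in cKO at RS, 5 in WT and 6 in SV129. None of the 8 had a peak at ES, and in sperm 0 had one in cKO and 1 each in WT and SV129. The share of all genes with a peak at either end was not counted for any marker list. In the gene or its flanks, a wider window, it was 44.9% for cKO, 63.4% for WT and 60.5% for SV129 at MS. At RS it was 14.9%, 64.1% and 55.8% in the same order.

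Of 10 somatic testis genes, 0 had a peak in cKO, 2 in WT and 2 in SV129 at MS, both times Amh and Cyp11a1, genes of Sertoli and Leydig cells. At RS and ES none had one, and in sperm 0 had one in cKO, 1 in WT (Cyp11a1) and 0 in SV129. Of 7 blood and epithelial genes, 0 had a peak in cKO, 2 in WT and 2 in SV129 at MS, Krt8 and Epcam, and 0, 2 and 1 at RS. At ES none had one, and in sperm 0, 0 and 1. The blood genes Ptprc, Cd3e and Adgre1 had none in any list. Sox9, Wt1, Gata4, Star and Insl3 had none either. The part of other cells in the peaks of the 7 genes was not tested.

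Nucleosome calls at either end were found in all 3 marker lists. At MS they lay at 5 of the 8 round spermatid genes in cKO, 5 in WT and 4 in SV129, at 4, 6 and 3 of the 10 somatic testis genes, and at 2, 5 and 3 of the 7 blood and epithelial genes. At RS the counts were 5, 7 and 6 for round spermatid genes, 4, 1 and 5 for somatic testis genes, and 3, 1 and 2 for blood and epithelial genes. At ES they were 7, 4 and 7, 9, 9 and 7, and 4, 5 and 4, with the marker lists in the same order. In sperm 2, 3 and 2 genes of the 3 lists had one in cKO, and 0 in WT and SV129. The share of all genes at either end was not counted. In the gene or its flanks, a wider window, the shares were 73.2%, 75.1% and 65.1% at MS and 63.9%, 63.1% and 68.4% at RS. They were 78.5%, 80.3% and 78.9% at ES and 71.7%, 8.79% and 10.4% in sperm.

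Kat2a, the gene deleted in cKO, had 1 peak at its start in each of cKO, WT and SV129 at MS, and 0 in cKO, 1 in WT and 0 in SV129 at RS. Where its lox sites lie is not stated in the sources at hand, so these counts do not check the labels.

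The genes whose pattern was most like that of the 7 together were found over the 24 lists, by Pearson's r on log2(covered bp + 1) within 1 kb of either end, with the covered bases of the 7 genes summed. Ppp1r13b came first (r = 0.994), followed by Maco1 (0.993), Klf9 (0.991), Ccdc186 (0.991) and Rnf214 (0.989), among 16680 genes with a median r of 0.608. On this scale a list with no covered base lies far below the others, so r depends much on which lists are empty. The 7 genes had no covered base in any subnucleosome list at ES or Sp, nor in the WT and SV129 nucleosome lists at Sp. The genes compared share the length of each list, and no p-value is given for these correlations.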

How the data were processed

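The authors deposited, for each of the 12 groups, a nucleosome list and a subnucleosome list, both of intervals with a score. The submitters' processing notes name STAR 2.5.2a, MACS2 2.1.0.20140616 and the build GRCm38 (mm10), without their role. How fragments were split into classes, how calls were made, how libraries were combined and what the deposited score measures are not given in the sources used here. Peak names in the cKO and WT subnucleosome lists carry the number of a single library. Score values of the SV129 subnucleosome peaks are 0 throughout, so scores were read only within a cKO or WT list.

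From these intervals, the bases covered and the intervals overlapping a gene with 1 kb on either side by at least 1 bp were counted with Python 3.11.15 and numpy 2.4.6, and within 1 kb of each RefSeq start separately. Starts were those of the RefSeq promoter table for GRCm38.p6, which holds 17492 of the 21887 protein-coding genes, all 7 members among them; genes without one were not used at starts. Shares have Wilson 95% intervals (scipy 1.17.1). With 1 list per group and no values per library, no test and no p-value between groups was possible, and depth is unknown. Counts of genes with an interval at the start in WT and none in cKO have the same count for SV129 beside them. The counting was tested on simulated intervals.

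The 7 members, the partner and marker lists, the motifs and the comparisons were chosen with earlier results of these data known. All 7 members are named, and of the 12 partner genes with a peak at the start at RS in both intact lists and none in cKO the first 6 in list order are given with values. The 5 genes most like the members were taken from genes covered in at least 3 lists. The site inside Sycp1 was chosen after its values were seen. A marker gene of the blood and epithelial list is not reported here and was left out of its counts. Alternatives were flanks of 500 bp and 2 kb, the centre of an interval in place of any overlap, the upper 50% of each list by score, and nucleosome calls without the most common score of their list.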

Additional observations from a re-analysis of the deposited data

How the results depend on the processing

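Of 216 alternative values for the counts of synaptonemal complex genes with an interval, 209 stayed within 1.5 times the main count and 7 moved. Many main counts were 0 or 7. A smaller flank, the centre rule or a cut by score cannot raise a count of genes with an interval from 0. A larger flank cannot lower one from 7. Part of the 209 was thus fixed in advance, and the number is no measure of robustness. In one alternative, only the 50% of peaks with the highest scores were kept, in the cKO and WT lists alike. At RS, 1 gene in place of 2 then had a subnucleosome peak in cKO, at the start as over the whole gene. At MS, 2 genes in place of 1 had a start peak in WT and none in cKO. They were Syce3 and Tex12, whose MS peaks in cKO scored above 47.1% and 19.1% of that list. Syce2 was no longer counted, since its WT peak, above 45.7% of the WT list at MS, was left out too. Without the most common score, 2 genes in place of 4 had a nucleosome call in cKO at RS. With a flank of 500 bp, 1 start in place of 2 had a nucleosome call in WT at ES. In cKO sperm, 0 starts had one with 500 bp and 2 with 2 kb, in place of 1. The cause of these changes was not tested.

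No paired analysis was possible because the lists carry no values per library, and for the same reason no library was left out. The upper 50% by score was not run for SV129, whose subnucleosome scores are 0. Depth is unknown, so an interval missing from a short list, such as the cKO subnucleosome list at RS, shows no more than that none was listed there.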
